A study of Mus musculus with 4 samples.

Results

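The phagocyte NADPH oxidase and enzymes that remove superoxide or hydrogen peroxide were followed through 8 genes, chosen by symbol. These genes were Cybb, Cyba, Ncf1, Ncf4 and Rac2 of the oxidase, the superoxide dismutase genes Sod1 and Sod2, and the catalase gene Cat. All 8 were found among the 23284 genes of each file. RNA came from mouse bone marrow-derived macrophages of 2 genotypes, Spic-/- (called cKO in the sample titles) and control (Spic+/+). Every culture had hemin, the oxidised form of heme, for 18 h, at 40 µM in the protocol text and at the same number in mM in the sample descriptions. Cells were then kept for 4 h with LPS (lipopolysaccharide of bacteria, sensed by Toll-like receptor 4) at 100 ng/ml, or without it. The 4 groups were Spic-/- with LPS, Spic-/- without LPS, control with LPS and control without LPS, and each was 1 library. No group without hemin was analysed here, so all values describe heme-loaded cells, and no difference has a replicate check, standard error or p-value. The allele, any Cre driver and the number or pooling of donor mice are not given in the labels.

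The oxidase is built from a membrane part and a cytosolic part. Cybb encodes gp91phox, the catalytic subunit that passes electrons from NADPH to oxygen, and Cyba encodes p22phox, its membrane partner. Together they form flavocytochrome b558. Ncf1 encodes the organiser p47phox and Ncf4 encodes p40phox. Together with the small GTPase Rac2, they move to the membrane when a phagocyte is stimulated. Superoxide dismutases turn superoxide into hydrogen peroxide. Sod1 encodes the copper-zinc enzyme of the cytosol and Sod2 the manganese enzyme of mitochondria. Which enzyme, if any, acted on superoxide of the oxidase was not measured here. Catalase, in peroxisomes, breaks hydrogen peroxide down.

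Values were FPKM, fragments per kilobase of transcript scaled for library size in a way the labels do not specify. The spacing of low values put 1 FPKM at about 8.07 to 15.6 fragments per kilobase, lowest in Spic-/- with LPS. Taken on its shortest coding transcript, each member rested on an estimated 1091 fragments or more in every library. The fewest were for Cat, whose shortest of 2 coding transcripts has 779 bases, and that rank may depend on the transcript taken. Counting intervals (95%, exact Clopper-Pearson) given below rest on these estimates and cover counting error only. Ratios are log2 ratios of (FPKM + 1), and a call needed a ratio of 2-fold or more and at least 5 FPKM in 1 of the compared libraries. Spic, which encodes the Ets-family factor Spi-C, was at 80.8 FPKM in Spic-/- against 406 FPKM in control with LPS, and at 14.98 FPKM in Spic-/- against 53.1 FPKM in control without LPS. All 8 macrophage markers were detected in every library, from 6.85 FPKM for Mertk in control with LPS to 6340.4 FPKM for Lyz2 in control without LPS. The F4/80 gene Emr1, Csf1r and Cd68 lay between 265 and 790.3 FPKM. The LPS co-receptor gene Cd14 was at 4092 FPKM with LPS and 234 FPKM without LPS in Spic-/-, and at 3523 and 114 FPKM in control with and without LPS. The 4 T and NK cell markers were at 0.12 FPKM or less in all. Markers of dendritic cells, B cells, erythroid cells and mast cells summed to 2.197 FPKM or less per list in every library.

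The 8 genes lie apart in the genome, except for Ncf4 and Rac2, which are both on chromosome 15. In GENCODE M21 (GRCm38, the assembly that mm10 denotes), Cybb lies on chromosome X from 9435252 to 9487771, Cyba on chromosome 8 from 122424776 to 122432930, and Ncf1 on chromosome 5 from 134220053 to 134229625, all on the minus strand. Ncf4 spans 78244801 to 78262580 on the plus strand of chromosome 15, and Rac2 spans 78559167 to 78572783 on its minus strand. Sod1 lies on chromosome 16 from 90220754 to 90226329 and Sod2 on chromosome 17 from 13006846 to 13040063, both on the plus strand. Cat lies on chromosome 2 from 103453849 to 103485160, on the minus strand.

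RefSeq promoter sequences (GRCm38.p6) were matched for 6 of the 8 genes, and 4 are shown because they set genes that were higher with LPS beside Cyba, which was not. The 4 were thus picked by their LPS ratios, and no link between letters and ratios was tested. Each sequence is the 250 bases before the start annotated in RefSeq, written 5′ to 3′ on the gene's own strand. They are Cybb chrX:9469325-9469574 (minus), Ncf1 chr5:134229626-134229875 (minus), Sod2 chr17:13007589-13007838 (plus) and Cyba chr8:122432941-122433190 (minus). The Cybb and Sod2 windows lie inside the GENCODE spans given above, which start elsewhere. Distances below are from the RefSeq start. Capitals mark, on either strand, GAAA and GAAA spaced by 2 bases (the letters of an interferon-response element), the NF-kB consensus and the GC box GGGCGG.
Cybb: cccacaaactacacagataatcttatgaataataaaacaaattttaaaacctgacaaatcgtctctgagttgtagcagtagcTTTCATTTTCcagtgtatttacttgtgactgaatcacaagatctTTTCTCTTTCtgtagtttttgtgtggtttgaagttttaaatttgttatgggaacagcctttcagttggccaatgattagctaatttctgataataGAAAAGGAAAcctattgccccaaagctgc
Ncf1: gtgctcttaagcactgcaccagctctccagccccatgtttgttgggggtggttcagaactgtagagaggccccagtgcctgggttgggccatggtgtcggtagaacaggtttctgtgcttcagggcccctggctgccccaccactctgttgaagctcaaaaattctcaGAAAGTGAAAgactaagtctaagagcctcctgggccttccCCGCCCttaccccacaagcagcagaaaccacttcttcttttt
Sod2: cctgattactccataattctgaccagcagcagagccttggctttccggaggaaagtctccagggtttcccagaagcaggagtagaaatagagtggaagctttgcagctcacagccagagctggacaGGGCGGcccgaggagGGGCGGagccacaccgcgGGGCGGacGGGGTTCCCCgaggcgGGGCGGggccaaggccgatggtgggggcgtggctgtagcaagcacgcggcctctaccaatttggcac
Cyba: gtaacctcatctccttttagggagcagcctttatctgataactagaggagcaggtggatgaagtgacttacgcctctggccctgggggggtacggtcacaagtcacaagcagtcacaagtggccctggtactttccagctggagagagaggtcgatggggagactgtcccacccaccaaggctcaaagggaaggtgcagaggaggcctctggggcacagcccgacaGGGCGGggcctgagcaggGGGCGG
Cybb holds the interferon-response letters at 3 places, starting 168, 124 and 29 bases before the start, and Ncf1 holds it at 1, starting 82 bases before it. Among all 32851 promoters of the same 300-base window (250 bases before to 50 after the start), 3.44% hold these letters. Sod2 has the NF-kB consensus from 83 to 74 bases before its start, between GC boxes, and 8.46% of promoters hold that consensus. Cat, which is not shown and was slightly lower with LPS (log2 ratio −0.34 in each genotype), holds it too. Cyba has 2 GC boxes and none of the other marked letters. These are matches of letters, not measured binding.

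**Figure D1:**
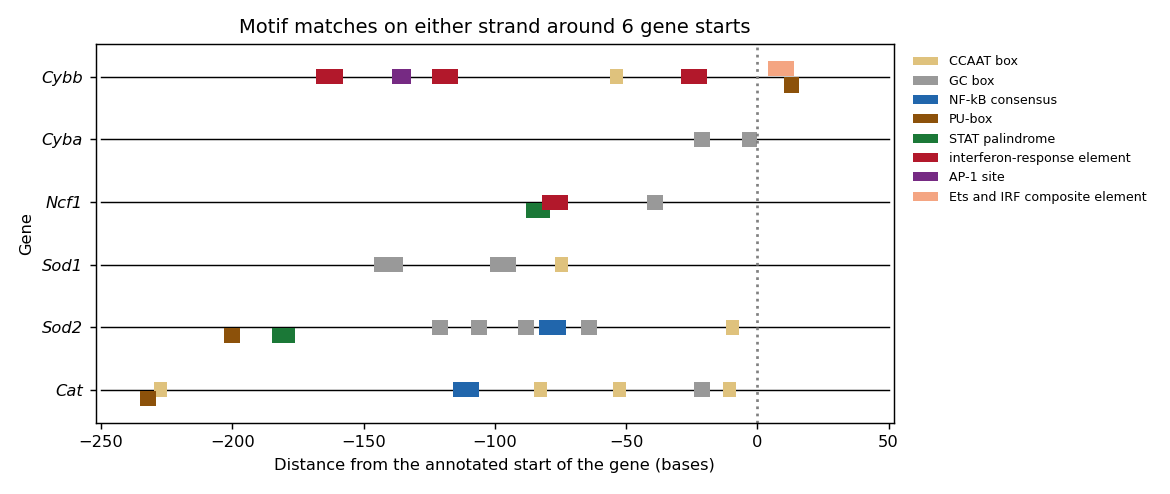
Positions of 8 motifs, on either strand, in 300-base windows around the annotated starts of the 6 genes with a promoter sequence; the x axis is distance from the start in bases and each coloured box is a match. Cybb has the interferon-response letters at 3 places and Ncf1 at 1, Sod2 has the NF-kB consensus among 4 GC boxes, and Cyba has GC boxes only. Cat, not higher with LPS, also has the NF-kB consensus.

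Other motifs were searched in the same windows. GAGGAA, the PU-box that Ets factors of the PU.1 group are known to bind, was in Cybb (10 to 15 bases into the gene), Sod2 and Cat, where 28.3% of all promoters hold it. GGAA and GAAA spaced by 2 bases, the composite letters of an Ets and an interferon regulatory factor, were in Cybb alone of the 6, overlapping its GAGGAA, against 2.72% of promoters. TGANTCA (AP-1) was in Cybb alone of the 6 (7.81% of promoters), and the palindrome TTCNNNGAA, bound by STAT factors, was in Ncf1 and Sod2 (8.30%), in Ncf1 overlapping the interferon-response letters. GGGCGG was in 5 of the 6, all but Cybb (35.7%), and CCAAT in Cybb, Sod1, Sod2 and Cat (37.4%). The NF-kB consensus of Cat lay from 116 to 107 bases before its start. The 250 bases before the Cybb start were 34.0% G and C, against a median of 52.4% over all promoters and 63.6% for Sod2.

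With LPS, 4 of the 8 genes were at least 2-fold higher in Spic-/- macrophages and the same 4 in control macrophages: Sod2, Cybb, Ncf1 and Rac2. Over all genes, calls of higher with LPS made up 13.7% of 8098 in Spic-/- and 12.3% of 8050 in control. No member was 2-fold lower, where 7.74% of genes were in Spic-/- and 6.5% in control, and none was 1.5-fold lower, where 17% and 15.1% were. At 3-fold, Sod2, Cybb and Ncf1 were past the threshold in Spic-/- (7.66% of genes) and Sod2 and Cybb in control (7.08%). The median ratio of the 8 genes was 1.04 in Spic-/- and 1.10 in control, beside medians of all genes of 0.12 and 0.11. The FPKM of all genes summed to 1.56 times as much with LPS as without in Spic-/- and 1.47 times in control. With the sums set equal, 2 members were at least 2-fold higher in Spic-/- (Ncf1 and Sod2) and 3 in control (Cybb, Ncf1 and Sod2), and the medians over all genes were −0.52 and −0.45. At equal sums Cybb in Spic-/- had a log2 ratio of 0.97, and Rac2 had 0.66 in Spic-/- and 0.71 in control. Which scaling is nearer to RNA per cell cannot be told from these files. Ratios between genes of 1 library, given below, are the same under any scaling. In a bulk sample, a change in the number of cells of a type and a change in RNA per cell cannot be told apart.

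**Figure D2:**
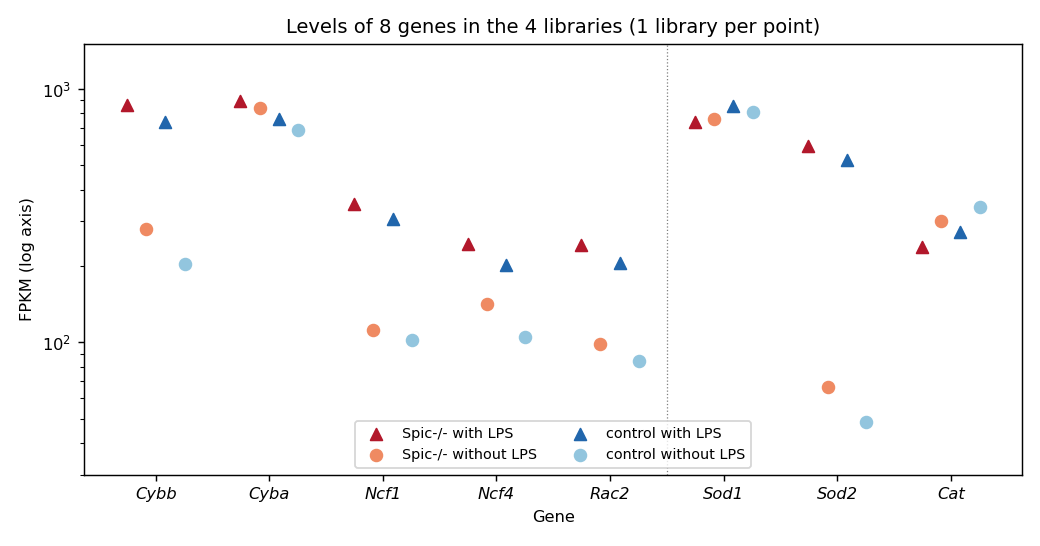
FPKM of the 8 genes on a log axis, 1 point for each library, with triangles for LPS, circles for no LPS, red for Spic-/- and blue for control; the dotted line parts the oxidase genes from the dismutase and catalase genes. Cybb, Ncf1, Ncf4, Rac2 and Sod2 have both triangles above both circles, whereas for Cyba, Sod1 and Cat the libraries differ little beside those genes.

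The 2 subunits of flavocytochrome b558 differed in their LPS ratios. Cybb was at 861 FPKM with LPS and 281 FPKM without LPS in Spic-/-, and at 735 FPKM with LPS and 203 FPKM without LPS in control. Both libraries with LPS stood above both without it. The FPKM ratio was 3.07 in Spic-/- (counting interval 3.01 to 3.13) and 3.63 in control (3.56 to 3.70), with log2 ratios of 1.61 and 1.85. Cyba was at 891 FPKM with LPS and 835 FPKM without LPS in Spic-/-, and at 759 and 686 FPKM in control with and without LPS. Its log2 ratios of 0.09 in Spic-/- and 0.15 in control were near the medians of all genes, and upper-quartile scaling turned both below 0 (−0.09 and −0.03), as did equal FPKM sums (−0.55 and −0.41). The ratio of the Cyba level to the Cybb level, in FPKM, was 1.04 with LPS and 2.98 without LPS in Spic-/-, and 1.03 with LPS and 3.38 without LPS in control. Per length, Cyba was the more abundant of the 2 without LPS, and the 2 were near equal with it.

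The cytosolic subunits differed in the size of their ratios. Ncf1, the organiser gene, was at 350.4 FPKM with LPS and 112 FPKM without LPS in Spic-/-, and at 305 FPKM with LPS and 102 FPKM without LPS in control. The FPKM ratio was 3.14 in Spic-/- (3.02 to 3.27) and 2.99 in control (2.88 to 3.10), and the log2 ratios were 1.64 and 1.57. Among the 28 pairs of members, Ncf1 and Cybb had the smallest root mean square difference of their 4 centred log2 values, 0.14. Many other genes were nearer to each, with 69 genes within 0.1 of Ncf1 and 21 within 0.1 of Cybb. Ncf4, the gene of another cytosolic subunit, had 243 FPKM with LPS and 141 FPKM without LPS in Spic-/-, and 201 FPKM with LPS and 105 FPKM without LPS in control. Its log2 ratios were 0.78 and 0.93, past 1.5-fold but under 2-fold in each genotype, where 25.4% of all genes were at least 1.5-fold higher in Spic-/- and 23.1% in control. At equal FPKM sums they were 0.14 and 0.38, under 1.5-fold. The ratio of the Ncf1 level to the Ncf4 level, in FPKM, was 1.44 with LPS and 0.79 without LPS in Spic-/-, and 1.52 with LPS and 0.973 without LPS in control.

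Rac2 encodes the Rac GTPase of blood cells that activates the oxidase. Its level was 242 FPKM with LPS and 98.2 FPKM without LPS in Spic-/-, and 205 FPKM with LPS and 84.7 FPKM without LPS in control. The FPKM ratio was 2.46 in Spic-/- (2.36 to 2.57) and 2.43 in control (2.33 to 2.53), and the libraries with LPS were both higher than those without. Rac1, the widely expressed paralog, differed less: it had 208 FPKM with LPS and 167 FPKM without LPS in Spic-/-, and 155 and 126 FPKM in control with and without LPS. Rac2 was at 1.16 times the FPKM of Rac1 with LPS and 0.589 times without LPS in Spic-/-. In control it was at 1.33 times with LPS and 0.673 times without, so that the order of the 2 GTPase genes turned round in each genotype. Only 0.502% of the 50-base words of the Rac2 transcript occur in transcripts of other genes, and Rac1 is not among the genes that share most of them.

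**Figure D3:**
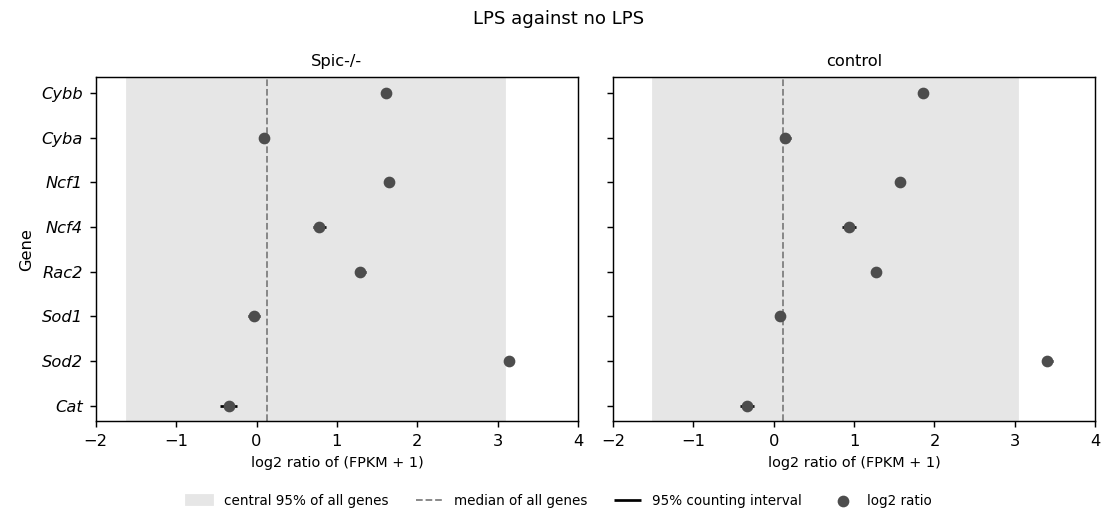
Log2 ratios of (FPKM + 1), LPS against no LPS, for the 8 genes in Spic-/- (left) and control (right), with bars for the 95% counting interval of the FPKM ratio, a grey band for the central 95% of all genes and a dashed line for their median. Sod2, at 3.14 and 3.40, lies past the upper end of the band in each panel (3.09 and 3.04); the other genes lie inside it, and the small ratios of Cyba in each panel and of Sod1 in control take the other sign after upper-quartile scaling and at equal FPKM sums.

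Sod2 had the largest LPS ratio of the 8 genes. Its FPKM was 596 with LPS and 66.7 without LPS in Spic-/-, and 522 with LPS and 48.5 without LPS in control. Without LPS it was the lowest of the 8 in each genotype. With LPS it stood above Ncf1, Ncf4, Rac2 and Cat. The FPKM ratio was 8.93 in Spic-/- (8.66 to 9.21) and 10.8 in control (10.4 to 11.1). Of all genes tested, 200 of 8098 in Spic-/- and 160 of 8050 in control had a log2 ratio as high or higher.

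Sod1, the cytosolic dismutase gene, stayed at a high level. It was at 740.4 FPKM with LPS and 757 FPKM without LPS in Spic-/-, and at 856 FPKM with LPS and 809 FPKM without LPS in control. The log2 ratios were −0.03 in Spic-/- and 0.08 in control, and the control ratio was −0.09 after upper-quartile scaling and −0.48 at equal FPKM sums. Of the summed FPKM of the 2 dismutase genes, Sod2 made up 44.6% with LPS and 8.10% without LPS in Spic-/-, and 37.9% with LPS and 5.65% without LPS in control. That sum was 1336 FPKM with LPS and 824 FPKM without LPS in Spic-/-, and 1379 and 857 FPKM in control with and without LPS. The Sod1 level is less certain than the others, since 23.1% of the 50-base words of its transcript also occur in the annotated gene Gm8566, and how fragments were shared out was not tested.

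Cat was slightly lower with LPS in each genotype. It was at 238 FPKM with LPS and 302 FPKM without LPS in Spic-/-, and at 271 FPKM with LPS and 342 FPKM without LPS in control. The FPKM ratio was 0.788 in Spic-/- (0.732 to 0.847) and 0.792 in control (0.746 to 0.842), under 1.5-fold in each. At equal FPKM sums the log2 ratios were −0.98 in Spic-/- and −0.89 in control, past 1.5-fold. The 2 libraries with LPS were both below the 2 without. Of 24 other peroxisome genes, all with 1 FPKM or more in some library, none was at least 2-fold higher with LPS and 2 were at least 2-fold lower in each genotype, with a median of −0.25 in Spic-/- and −0.21 in control. These 2 genes are 8.33% of the list, near the 7.74% and 6.5% of all genes that were 2-fold lower. The 2 were Abcd2, which encodes a peroxisomal fatty acid transporter, and the acyl-CoA oxidase gene Acox3. Acox3 was at 6.81 FPKM with LPS and 17.2 FPKM without LPS in Spic-/-, and at 7.55 and 17.6 FPKM in control with and without LPS. Abcd2 was under the 5 FPKM behind the shares of all genes, at 0.139 FPKM with LPS and 1.84 FPKM without LPS in Spic-/-, and at 0.0884 and 2.32 FPKM in control with and without LPS.

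**Figure D4:**
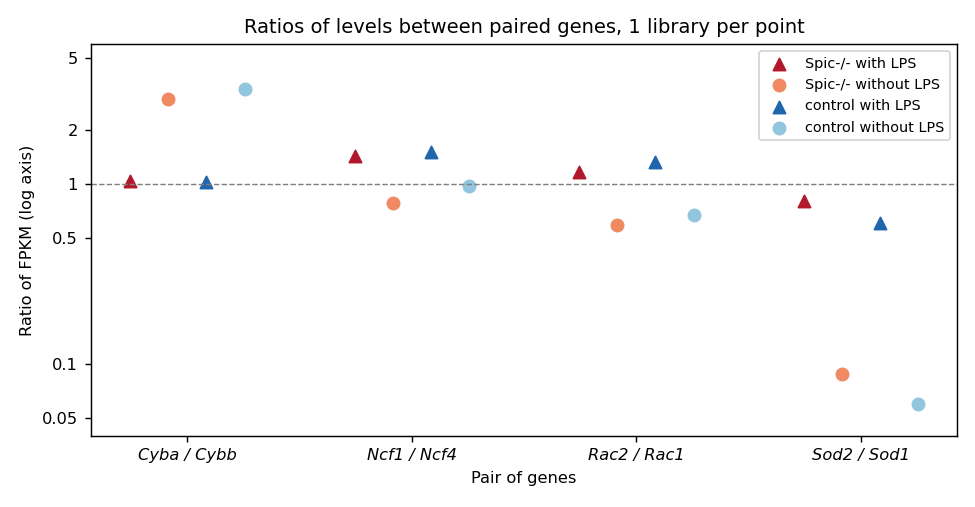
Ratios of FPKM between paired genes on a log axis, 1 point for each library, with triangles for LPS and circles for no LPS; the dashed line marks equal levels per length. Cyba over Cybb is 1.04 and 1.03 with LPS in Spic-/- and control, Sod2 over Sod1 is 0.805 and 0.61 with LPS and 0.0881 and 0.0599 without LPS, and Rac2 over Rac1 crosses 1.

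The rest of the oxidase machinery was mixed. Of 13 further oxidase component genes, 5 reached 1 FPKM, and their median LPS ratio was 0.32 in Spic-/- and 0.30 in control. Hvcn1, the voltage-gated proton channel that balances charge during the oxidase reaction, was at 70.1 FPKM with LPS and 19.1 FPKM without LPS in Spic-/-, and at 86.9 and 22.6 FPKM in control with and without LPS. Nox1, another catalytic oxidase gene, stayed low, at 5.26 FPKM with LPS and 1.87 FPKM without LPS in Spic-/-, and at 4.32 and 0.69 FPKM in control with and without LPS. These were the 2 genes of that list at least 2-fold higher in each genotype, 40% of the 5. Of all genes, 13.7% were in Spic-/- and 12.3% in control. Nox1 in control was under the 5 FPKM behind the shares of all genes. BC017643, listed here as Cybc1 although no reference annotation used here pairs the symbols, had log2 ratios of −0.60 in Spic-/- and −0.47 in control. Nox3, Noxa1, Duox1, Duoxa1 and Duoxa2 were listed at 0 in every library.

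Among 12 measured genes of Rac exchange factors, GDP dissociation inhibitors and kinases that act on the oxidase, the median LPS ratio was 0.07 in each genotype. Prkcd, a protein kinase C gene whose product phosphorylates p47phox, was highest in that list. It was at 232 FPKM with LPS and 106 FPKM without LPS in Spic-/- (log2 ratio 1.13), and at 190 FPKM with LPS and 98.3 FPKM without LPS in control (0.94). It was the one gene of the list at least 2-fold higher in Spic-/-, 8.33% of the list beside 13.7% of all genes. None was in control, where 12.3% of all genes were. Tiam1, a Rac exchange factor gene at 0.653 FPKM with LPS and 2.39 FPKM without LPS in Spic-/-, was the one at least 2-fold lower there. It is 8.33% of the list, beside 7.74% of all genes, and was under the 5 FPKM behind the shares of all genes.

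Other enzymes that remove superoxide and peroxide were mixed. Of 23 measured genes, 3 were past 2-fold with LPS in each genotype, none was 2-fold lower, and the median was −0.02 in Spic-/- and 0.10 in control. The 3 are 13.04% of the list, near the 13.7% and 12.3% of all genes. Prdx5, a peroxiredoxin gene, was at 2221 FPKM with LPS and 541 FPKM without LPS in Spic-/-, and at 1818 and 372 FPKM in control with and without LPS. Txnrd1, the cytosolic thioredoxin reductase gene, had log2 ratios of 1.84 in Spic-/- and 1.81 in control. Gsr, the glutathione reductase gene, had 1.34 and 1.25. Next was the sulfiredoxin gene Srxn1, at 0.93 in each genotype.

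Known NF-kB targets and genes of factors that act on oxidase promoters were set beside the 8 genes. All 9 listed NF-kB target genes were past 2-fold with LPS in each genotype, with log2 ratios from 2.02 for Relb to 5.51 for Tnfaip3 in Spic-/- and from 2.21 to 5.48 for the same genes in control. Their median was 3.39 in Spic-/- and 3.37 in control, and Sod2, at 3.14 and 3.40, lay within the range. This list was chosen with earlier results of these data known and left Sod2 out. Control of Sod2 by NF-kB was not tested. Of 6 measured factor genes, 3 were at least 2-fold higher in each genotype, beside the 13.7% and 12.3% of all genes. The other 3 were below 0. Irf1, an interferon regulatory factor gene, was at 323 FPKM with LPS and 34.1 FPKM without LPS in Spic-/-, and at 258 and 27.1 FPKM in control with and without LPS. Cebpb was at 1.81 in Spic-/- and 2.19 in control on the log2 scale. Sfpi1, the older symbol of the PU.1 gene, was at 1.04 in Spic-/- and 1.22 in control, and Cebpa was at least 2-fold lower, at −1.38 and −1.44. Irf8 was at 27.1 FPKM with LPS and 51.9 FPKM without LPS in Spic-/- (log2 ratio −0.91), and at 23.9 and 47.2 FPKM in control with and without LPS (−0.95). Elf1, an Ets-family factor gene, had −0.47 in Spic-/- and −0.59 in control.

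The genes most like each member were found by the root mean square difference of 4 centred log2 values over 7683 candidate genes. For Sod2 they were Parp14 (0.03), Irf1 (0.07) and the NF-kB subunit gene Nfkb2 (0.07). For Cybb they were the proteasome activator gene Psme2 (0.05), Igsf6 (0.06) and Nod1 (0.06). For Ncf1 they were Osbpl3 (0.0045), Nfe2l2 (0.03), which encodes NRF2, and Ccdc50 (0.04). Rac2 was most like Cept1 (0.0092), Ifrd1 (0.02) and Myo1g (0.02), and Ncf4 most like Snrnp35 (0.02), Trib1 (0.03) and Ticam1 (0.04). For Cyba the genes were Agtpbp1 (0.01), Rps19bp1 (0.01) and Pygl (0.02), for Sod1 Sfrs18 (0.02), Trim35 (0.02) and Usp33 (0.02), and for Cat Mrps34 (0.02), Zkscan3 (0.02) and Tbc1d19 (0.02). Within a difference of 0.1 lay 7 genes for Sod2, 21 for Cybb, 69 for Ncf1, 71 for Ncf4, 139 for Rac2, 276 for Cat, 448 for Sod1 and 556 for Cyba. The likeness rests on 4 libraries and is a description.

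Between the genotypes no member was 2-fold or even 1.5-fold apart, with LPS or without it. Over all genes with LPS, 0.493% of 7509 were higher in Spic-/- by 2-fold or more and 0.4% lower, and at 1.5-fold 2.86% and 1.69%. Without LPS, 0.49% of 7762 genes were higher in Spic-/- by 2-fold or more and 0.412% lower, and at 1.5-fold 1.75% and 1.37%. The 5 oxidase genes and Sod2 were above 0 in each LPS state, and Sod1 and Cat were below 0 in each. The pairs of libraries with and without LPS share no library, but whether they share donor mice is not given in the labels. The same sign in each LPS state may therefore not be 2 separate observations. Of 6999 genes tested in both, 69.7% had the same sign in each, 53.9% both above 0 and 15.8% both below 0.

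With LPS the ratios of the 5 oxidase genes to control lay close together. Cybb was at 861 FPKM in Spic-/- and 735 FPKM in control, a ratio of 1.17 (counting interval 1.15 to 1.19). Cyba was at 891 FPKM in Spic-/- and 759 FPKM in control, a ratio of 1.17 (1.12 to 1.23). On the log2 scale the 5 genes ranged from 0.20 for Ncf1 to 0.27 for Ncf4, where the median of all genes was 0.09 and their central 95% ran from −0.49 to 0.60. Sod2 was at 0.19. Sod1, at 740.4 FPKM in Spic-/- and 856 FPKM in control, had −0.21, and Cat, at 238 and 271 FPKM in Spic-/- and control, had −0.19. The FPKM of all genes summed to 1.11 times as much in Spic-/- as in control. At equal FPKM sums the 5 oxidase genes ranged from 0.05 for Ncf1 to 0.12 for Ncf4. Sod2 was then at 0.04, Sod1 at −0.36 and Cat at −0.34.

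Without LPS the 5 oxidase genes were more spread. Cybb was at 281 FPKM in Spic-/- and 203 FPKM in control, a ratio of 1.39 (1.35 to 1.42) and a log2 ratio of 0.47. Ncf4 had 141 FPKM in Spic-/- and 105 FPKM in control, a ratio of 1.35 (1.27 to 1.43). Sod2 had 66.7 FPKM in Spic-/- and 48.5 FPKM in control, a ratio of 1.38 (1.32 to 1.43). These 3 were the highest of the 8, and 220 genes had a log2 ratio as high as Cybb or higher. Cyba was at 0.28, Rac2 at 0.21 and Ncf1 at 0.13, whereas Sod1 was at −0.09 and Cat at −0.18. All 8 lay within the central 95% of all genes, −0.37 to 0.49. The FPKM of all genes summed to 1.05 times as much in Spic-/- as in control. At equal FPKM sums Cybb was at 0.40, Sod2 at 0.38 and Ncf4 at 0.36. Ncf1 was then at 0.06, Sod1 at −0.17 and Cat at −0.25.

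**Figure D5:**
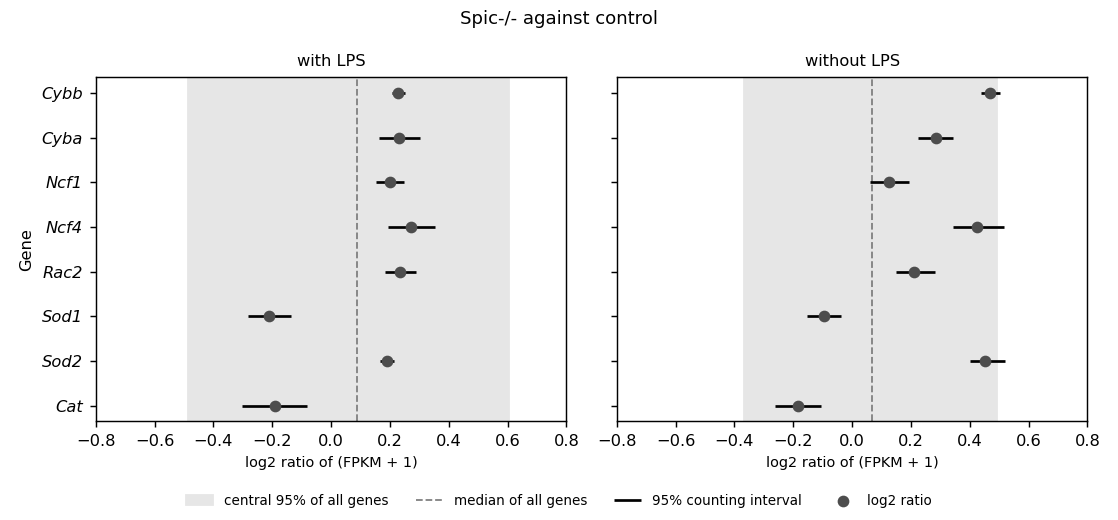
Log2 ratios of (FPKM + 1), Spic-/- against control, for the 8 genes with LPS (left) and without LPS (right), with bars for the 95% counting interval of the FPKM ratio, a grey band for the central 95% of all genes and a dashed line for their median. All 8 points lie inside the band in each panel; Sod1 and Cat are below 0 and the other 6 above it.

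Some marker lists differed between the genotypes or with LPS in the same libraries. The 9 stromal markers summed to 359 FPKM in Spic-/- and 628 FPKM in control with LPS, and to 313 FPKM in Spic-/- and 594 FPKM in control without LPS. Of these, 8 reached 5 FPKM, and their part in the genotype ratios was not tested. Of 10 neutrophil markers in the files 3 reached 5 FPKM, S100a8, S100a9 and Mmp8. Mpo was listed at 0 in every library and Elane in all but Spic-/- without LPS, where it was at 0.109 FPKM. The sum of the 10 was 155 FPKM in Spic-/- and 265 FPKM in control with LPS, and 67.8 FPKM in Spic-/- and 69.5 FPKM in control without LPS. S100a8, at 114 and 214 FPKM in Spic-/- and control with LPS, made up most of the sums with LPS. The part of the neutrophil list in the LPS ratios of the oxidase genes was not tested. The macrophage list had a median genotype log2 ratio of 0.26 with LPS, with 7 of 8 markers above 0, and 0.27 without LPS, with 6 of 8 above 0, beside medians of the 8 members of 0.21 and 0.25. Its sum was lower in Spic-/- in each LPS state, and so was Lyz2, the lysozyme gene. Lyz2 was at 3419 FPKM in Spic-/- and 5620.4 FPKM in control with LPS, and at 4014 FPKM in Spic-/- and 6340.4 FPKM in control without LPS. The sum of the 8 markers was 9526 FPKM in Spic-/- and 10822 FPKM in control with LPS, and 6282 FPKM in Spic-/- and 8165 FPKM in control without LPS. The part of the macrophage list in the genotype ratios was not tested.

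In the related lists few genes were far apart between genotypes. None of the 5 further oxidase components and none of the 12 activators was 2-fold apart in either LPS state. Without LPS, Nox1 had the largest ratio of the components, 0.77 on the log2 scale and past 1.5-fold, at the low levels of 1.87 FPKM in Spic-/- and 0.69 FPKM in control. Rac1 was at 208 FPKM in Spic-/- and 155 FPKM in control with LPS, and at 167 FPKM in Spic-/- and 126 FPKM in control without LPS. Hvcn1 went below 0, at −0.31 with LPS and −0.23 without. Prex1, a Rac exchange factor gene, was highest among the activators, at 0.36 with LPS and 0.28 without. All 12 activators were above 0 without LPS (median 0.14) and 9 with LPS (median 0.23). The medians of all genes were also above 0, at 0.07 without LPS and 0.09 with LPS. Of 6999 genes tested in both LPS states, 53.9% were above 0 in both.

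Of the 23 other genes of superoxide and peroxide removal, none was 2-fold apart between the genotypes, and the median was 0.01 with LPS and −0.02 without. With LPS the lowest were Gpx7 (−0.76) and Sod3 (−0.70), both past 1.5-fold, and without LPS the lowest was Gpx8 (−0.64). Gpx7 was at the low levels of 0.862 FPKM in Spic-/- and 2.16 FPKM in control with LPS, under the 5 FPKM needed for a call. Sod3, the gene of the secreted dismutase, was at 7.35 FPKM in Spic-/- and 12.5 FPKM in control with LPS, and at 4.29 FPKM in Spic-/- and 6.09 FPKM in control without LPS. Glrx, a glutaredoxin gene, was at 720.1 FPKM in Spic-/- and 549 FPKM in control with LPS, and at 748 FPKM in Spic-/- and 497 FPKM in control without LPS. Prdx5 had 0.54 without LPS. None of the 24 peroxisome genes was 2-fold apart, with medians of −0.03 with LPS and −0.04 without. Traf1, at 17.95 FPKM in Spic-/- and 8.25 FPKM in control without LPS, was the one NF-kB target at 2-fold or more, and no factor gene was 1.5-fold apart.

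The LPS ratios of the 2 genotypes were set against each other by their difference, Spic-/- minus control. Sod2 had −0.26 and Cybb −0.24, the 2 lowest among the 8, and Ncf1 had 0.07, the highest. At equal FPKM sums Ncf1 was at −0.0089 and Rac2 at −0.06. As deposited, Ncf4 was at −0.15, Sod1 at −0.12, Cyba at −0.05, Cat at −0.01 and Rac2 at 0.02. The central 95% of 8272 genes ran from −0.49 to 0.47 and held all 8, and at least 2-fold larger or smaller ratios in Spic-/- were found for 0.375% and 0.447% of genes and for no member. With 1 library a group this difference could not be tested.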

How the data were processed

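RNA of 4 mouse macrophage libraries was analysed, 1 for each combination of genotype and LPS. Libraries were TruSeq stranded mRNA libraries of RNeasy-purified RNA, per the labels' protocols. The submitters' processing notes name Cuffnorm 2.2.1, TopHat2 2.0.13, SAMtools 0.1.19, Bowtie2 2.2.3 and the mm10 build. Roles, settings, the strand setting and the annotation behind the values are not given in the sources used here. FPKM per gene were deposited by the authors, 1 file per library, with no read counts. They summed to 819232 with LPS and 525348 without LPS in Spic-/-, and to 736818 with LPS and 500123 without LPS in control.

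Ratios of (FPKM + 1) were computed from the deposited FPKM without further scaling (Python 3.11.15, pandas 2.3.3, scipy 1.17.1). Genes needed 5 FPKM in at least 1 library of a comparison, and list genes 1 FPKM in any library. No test was run, since no group has a replicate. A fit with additive terms for LPS and genotype, whose single residual degree of freedom is the difference of the LPS responses, was not run. The members and lists were chosen with earlier results of these data known. All 8 members were named, with up to 4 genes per list and comparison by size of ratio, and the 3 nearest genes per member. Relative depth came from the spacing of values under 0.3 FPKM and absolute depth from 2772 single-transcript genes of GENCODE M21, each shortened by 210 bases to an effective length. Fragments of a member were taken from its shortest coding transcript. The code that calls genes higher or lower was tested on simulated data, and the code for depth and counting intervals was not. Alternatives changed the pseudocount, minimum, threshold or scaling. Scaling to equal FPKM sums was added after seeing the data. Motifs were chosen with the members known. Some genes that these lists take are not reported here. Ly6g and the beta-globin genes among the cell type markers were not analysed here.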

Additional observations from a re-analysis of the deposited data

Results flagged for a closer look

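Sod1 had LPS ratios of opposite sign in the 2 genotypes, −0.033 in Spic-/- and 0.083 in control on the log2 scale. As an FPKM ratio, Spic-/- had 0.978, with a counting interval of 0.931 to 1.03 that holds 1. Control had 1.06 (1.02 to 1.10). The difference was not tested, each genotype having 1 library for each LPS state, and the control ratio was −0.09 after upper-quartile scaling and −0.48 at equal FPKM sums.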

How the results depend on the processing

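The count of members at 2-fold or more was 4 for LPS in each genotype and 0 for genotype in each LPS state under every pseudocount and minimum tried and under median-of-ratios and upper-quartile scaling. With equal FPKM sums, a scaling chosen after seeing the data, it was 2 for LPS in Spic-/-, 3 in control and 0 for genotype in each LPS state. The median ratio of the 8 genes was then 0.40 for LPS in Spic-/- and 0.55 in control, and 0.061 with LPS and 0.18 without LPS for Spic-/- against control. At 1.5-fold it was 5 for LPS in each genotype and 0 for genotype, and at 3-fold it was 3 for LPS in Spic-/- and 2 in control. After upper-quartile scaling the median ratio of the 8 genes was 0.85 for LPS in Spic-/- and 0.93 in control, and 0.12 with LPS and 0.17 without LPS for Spic-/- against control. With it, the median over all genes was −0.06 for LPS in Spic-/- (0.12 as deposited) and −0.07 in control (0.11). Genes higher with LPS were then 51.3% of calls in Spic-/- (63.9% as deposited) and 52.9% in control (65.5%), and genes higher in Spic-/- were 44.6% of calls with LPS (55.2%) and 45.5% without LPS (54.3%). Under median-of-ratios scaling genes higher in Spic-/- were 49.3% of calls with LPS and 48.5% without LPS. At equal sums genes higher with LPS were 23.0% of calls in Spic-/- and 26.2% in control, and genes higher in Spic-/- were 40.7% with LPS and 44.3% without LPS. Of 200 single-gene values, 8 changed sign, and the values as deposited of these were all under 0.2. The LPS ratios of Cyba in each genotype and of Sod1 in control did so under upper-quartile scaling and at equal sums, and the differences of the LPS responses of Ncf1 and Rac2 at equal sums. Over all genes, the calls for LPS numbered 1736 in Spic-/- and 1515 in control. In Spic-/- they were 1155 with a pseudocount of 5 FPKM, 1079 with a minimum of 20 FPKM, 3429 at 1.5-fold and 833 at 3-fold. In control they were 943 with a minimum of 20 FPKM, 3079 at 1.5-fold and 747 at 3-fold. For genotype with LPS the calls numbered 67, against 43 with a pseudocount of 5 FPKM, 44 with a minimum of 20 FPKM, 106 with a minimum of 1 FPKM or none, 342 at 1.5-fold and 29 at 3-fold. Without LPS they numbered 70, against 40 with a pseudocount of 5 FPKM, 242 at 1.5-fold and 33 at 3-fold. Thresholds and minimums change the number of genes counted by construction, and a larger pseudocount draws every ratio towards 0. The cause of the other changes was not tested. The labels give no replicate numbers, so no fit with a replicate block was made.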

Other observations

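Ncf4 and Rac2 are 296586 bases apart on chromosome 15, and 9 protein-coding genes of the files lie between them. Of these, 3 reached 5 FPKM, and none was at least 2-fold higher or lower with LPS in either genotype. The nearest to 2-fold was Csf2rb, named after its values were seen, a gene of the shared beta chain of cytokine receptors, at 90.6 FPKM with LPS and 48.7 FPKM without LPS in Spic-/- and at 69.4 and 35.1 FPKM in control with and without LPS.

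Of genes annotated on the strand opposite a member, Gtf2ird2 beside Ncf1 was at 1.06 to 2.42 FPKM and Scaf4 beside Sod1 at 6.93 to 8.24 FPKM over the 4 libraries, far under the members themselves. Gm20388, on the strand opposite Cyba, was not analysed here.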
